A study of Mus musculus with 8 samples.

Results

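The wild type side of an array study of mouse embryonic stem (ES) cells held a pair of separate cell pools, A1 and B1, and the 4 arrays of these pools were compared with each other. They are 4 of the 8 arrays of the series, chosen by the pool named for each sample: A1 untreated, A1 with OHT, B1 untreated and B1 with OHT. By label all 8 samples were H-Ras-/- and N-Ras-/-, with RERTert/ert and a conditional (floxed) allele, a genotype in which OHT (4-hydroxytamoxifen, given for at least 2 days) activates a recombinase that deletes the floxed gene. Pools A1 and B1 were ERF-WT, and the other 4 arrays, labelled ERF-KO, held pools A2 and B2, again untreated or with OHT. Each pool was a mix of 2 clones grown on gelatin with serum and LIF, and the sources used here do not say in what other way the A and B pools differed.

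The comparison was A1 minus B1, with the treatment as a block, so each gene had 2 differences: one between the untreated arrays and one between the OHT arrays. The spread behind the p-values is how far such pairs of differences disagreed, between A1 and B1 and likewise between A2 and B2. It does not measure how far independent pools or cultures vary, since each side is 1 pool. The spread was moderated over genes. In a fit without 1 wild type array, the residual spread came from the ERF-KO arrays alone. Levels are log2 processed signal minus the array's 75th percentile, written below as log2 level, and they rank samples for 1 gene but not genes against each other. Adjusted p-values came from limma with Benjamini-Hochberg adjustment over the 15513 genes tested, and a gene was called at an adjusted p below 0.05.

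Both B1 arrays lay on slide 2 and the other 6 arrays on slide 1, and each slide was scanned once, so for A1 against B1 the pool and the slide cannot be told apart. On slide 2, 54.0% and 54.2% of spots were well above background, against 62.3% and 63.6% on the A1 arrays and 55.9% to 61.3% on the ERF-KO arrays. The median E1A spike-in, a labelled control RNA, stood at log2 levels of 0.41 and 0.42 on the A1 arrays, and of 1.22 and 1.33 on the B1 arrays. Pools A2 and B2 lay together on slide 1, so A2 minus B2 is a within-slide difference with no array in common with A1 minus B1. All 8 ES cell markers examined, Pou5f1 and Nanog among them, were well above background on the 4 wild type arrays. So were all 7 fibroblast and all 7 primitive endoderm markers, and 5 of 6 trophoblast, 4 of 5 neuroectoderm and 2 of 5 mesoderm markers.

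Of the 15513 genes, 4371 (28.2%) were called between A1 and B1, 1678 (10.8%) of them higher and 2693 (17.4%) lower in A1. At least 2-fold differences were called for 818 genes (5.27%), 538 higher (3.47%) and 280 lower (1.8%) in A1. The median over all genes was -0.05, and it went with brightness, at 0.16 in the dimmest 25% of genes and -0.12 in the brightest 25%. The untreated and OHT differences had the same sign for 79.6% of all genes. With any 1 of the 4 wild type arrays left out, only 1 pair of arrays carried the contrast, and the count was 1088 without A1 untreated, 1090 without B1 untreated, 1195 without A1 OHT and 1297 without B1 OHT. Without a term for treatment it was 112, of which 71.4% were higher in A1.

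The largest differences above 0 included genes that mark the 2-cell stage of the mouse embryo. ES cell cultures hold a small, changing fraction of cells that switch such genes on for a time and then off again. The Zscan4 proteins act in telomere maintenance in these cells, Tcstv1 and Tcstv3 are 2-cell-stage transcripts, and the Usp17-like genes encode deubiquitinases. All 3 groups occur as clusters of near-identical copies, so a probe can bind several copies, and the values of single members are uncertain.

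The copies are shown by the promoters of Zscan4c and Zscan4f, taken from RefSeq (build GRCm38.p6, both on the plus strand, 250 bases before to 50 bases after the start). Capitals mark the words TATAAA and TGATTCAAT, each searched on both strands.
Zscan4c, chr7:11005495-11005794: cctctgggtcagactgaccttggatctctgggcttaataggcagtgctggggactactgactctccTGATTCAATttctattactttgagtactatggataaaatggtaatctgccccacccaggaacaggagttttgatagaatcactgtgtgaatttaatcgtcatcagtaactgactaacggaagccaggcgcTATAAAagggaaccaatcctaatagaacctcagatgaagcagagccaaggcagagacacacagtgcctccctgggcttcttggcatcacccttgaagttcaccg
Zscan4f, chr7:11397665-11397964: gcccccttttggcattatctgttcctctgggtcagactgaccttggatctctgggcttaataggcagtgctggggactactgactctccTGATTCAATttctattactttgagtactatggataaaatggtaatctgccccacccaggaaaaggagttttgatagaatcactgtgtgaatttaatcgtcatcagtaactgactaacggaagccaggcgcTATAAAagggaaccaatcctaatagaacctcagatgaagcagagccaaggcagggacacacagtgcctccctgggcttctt
In a global alignment these windows were identical in 275 of 323 columns (85.1%), the rest being mostly the shift between the annotated starts. TATAAA begins 54 bases before the Zscan4c start and 31 before that of Zscan4f, and TGATTCAAT 184 and 161 bases before them. Of the 12 tested 2-cell-like genes with a promoter entry, 6 held TATAAA (Usp17lb, Usp17lc, Usp17ld, Zscan4b, Zscan4c and Zscan4f), against 13.6% of all 32851 promoters. These 6 are members of the Usp17-like and Zscan4 clusters of copies, so they are not independent promoters. TGATTCAAT occurred in the Zscan4c and Zscan4f windows alone of the 12, and in 0.113% of all promoters.

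Zscan4c had log2 levels of 5.61 untreated and 5.49 with OHT in A1, against 1.98 and 1.66 in B1. Zscan4f had 6.43 and 6.23 in A1, against 2.61 and 2.33 in B1. Both genes were thus far apart between the pools and close within each pool, and the differences were 3.73 ± 0.08 and 3.86 ± 0.07 (SE, 2 arrays a pool), or 13.3-fold and 14.5-fold, with adjusted p = 1.2e-06 and 9.9e-07. Tcstv3 had 1.77 and 1.26 in A1, against -2.66 and -3.26 in B1, a difference of 4.48 ± 0.14 (adjusted p = 6.2e-06). Tcstv1 had 1.47 and 0.95 in A1, against -3.19 and -3.12 in B1, a difference of 4.37 ± 0.21 (adjusted p = 6.6e-05). OHT moved each of these 4 genes by less than 1 log2 unit within a pool.

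**Figure D1:**
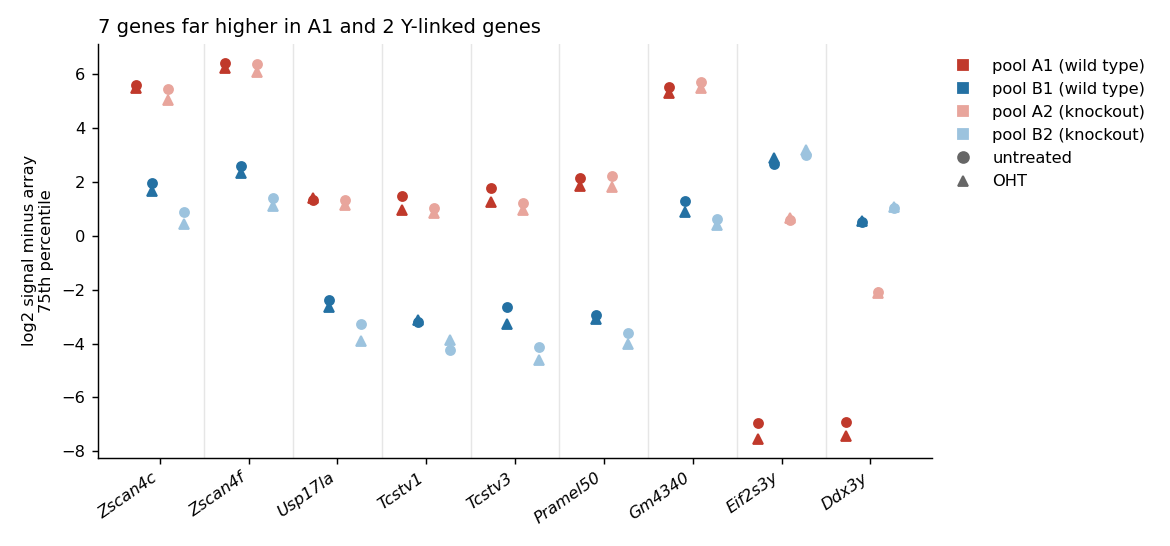
Log2 level (log2 signal minus the array's 75th percentile, y axis) of 7 genes far higher in pool A1 and of 2 Y-linked genes on each of the 8 arrays; colour gives the pool, circles are untreated and triangles are OHT arrays. Zscan4f lies at 6.43 and 6.23 in A1 against 2.61 and 2.33 in B1, and Eif2s3y at -6.97 and -7.54 in A1 against 2.66 and 2.88 in B1.

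Of 29 genes listed as 2-cell-like, 22 were on the array under a matched name and 20 were tested. The list had 16 calls higher and 0 lower in A1, with a median difference of 3.86 (3.60 with the 4 members below background in B1 set to their bounds), beside -0.05 over all genes. The members below background in B1 passed the brightness filter through pools where they are bright. The count of 16 is therefore a description and is not read against the 10.8% of all genes called higher. The 4 members without a call were Eif1a, Zfp352, Pramel7 and Pramel6, at differences between -0.01 and 0.64. Usp17la had 2 probes that disagreed, at 3.87 for the brighter and 0.32 for the other. Arrays of bulk RNA cannot tell apart a larger share of cells with these transcripts and more transcript in each such cell.

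The 12 largest calls above 0 among genes well above background on all 4 wild type arrays ran from 4.31 to 5.01. Apart from Tcstv1 and Tcstv3 they were Pramel50, Pramel19 and Pramel39, members of the leucine-rich PRAME-like family, with Gm38423, Gm11757, Gm4303, Gm4340, Gm7104, BB287469 and E330014E10Rik. Pramel50 had 2.13 and 1.85 in A1, against -2.96 and -3.09 in B1, a difference of 5.01 ± 0.12 (adjusted p = 1.9e-06). Gm4340 had 5.54 and 5.31 in A1, against 1.28 and 0.90 in B1, a difference of 4.34 ± 0.08 (adjusted p = 9.9e-07). All 12 kept their call without each of the 4 wild type arrays.

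A further 5 genes were well above background on both A1 arrays and on neither B1 array with the largest bounds. By those bounds they were Spopfm2, at least 27.6-fold higher in A1, Gm16367 (at least 20.02-fold), AU019990 (at least 12.5-fold), Gm11543 (at least 11.7-fold) and Pramel21 (at least 8.37-fold). A bound sets the mean of the A1 arrays against a B1 value. On each B1 array that value is the gene's own signal or the dimmest signal well above background, whichever is larger. In all, 695 genes were well above background on both A1 arrays and neither B1 array, and 33 the other way round. The lower detection on slide 2 moves with that imbalance, and its part in it was not tested.

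The 2-cell-like list also differed between the ERF-KO pools, which lay on a single slide. It had a median A2 minus B2 of 4.65, with 16 of 20 members called higher and 0 lower in A2, where 44.5% of all genes were called, 18% higher and 26.4% lower. As for the wild type pools, the count is a description and is not read against those shares. Zscan4f had 6.37 and 6.08 in A2, against 1.39 and 1.12 in B2. A1 and A2 were thus alike in level for this gene, and both B pools were low. The difference of the 2 pool differences was called for 10 of the 20 members, beside 17.7% of all genes.

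Y-linked genes were lower in A1. Eif2s3y, which encodes a Y-linked subunit of a translation initiation factor, had -6.97 and -7.54 in A1, not well above background, against 2.66 and 2.88 in B1. Ddx3y, a Y-linked RNA helicase, had -6.90 and -7.43 in A1, again not well above background, against 0.50 and 0.55 in B1. Eif2s3y was at least 211-fold lower in A1 (adjusted p = 1.2e-06) and Ddx3y at least 44.4-fold lower (adjusted p = 2.0e-06). Over all settings run their log2 differences came as near to 0 as -6.00 and -3.73, smaller than these bounds. Both kept the call without each of the 4 wild type arrays.

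Of 20 Y-linked genes matched on the array 7 were tested, and 5 were called lower and 0 higher in A1. All 5 were not well above background in A1 and passed the brightness filter through pools where they are bright, so this count is a description and is not read against the 17.4% of all genes called lower. The remaining calls were Sly (at least 5.85-fold lower), Rbmy (at least 2.71-fold lower) and Gm20736 (at least 2.62-fold lower, well above background on 1 of the 2 B1 arrays). These lost the call without at least 1 wild type array. Sry was not called (adjusted p = 0.50). Uty was not called by its brightest probe (-0.73, adjusted p = 0.41), its other probe gave -3.45, and it was called with the mean of both probes (-2.09, adjusted p = 0.038) and with normexp background correction (-0.81, adjusted p = 0.0066). Xist, the RNA that coats an inactive X chromosome, did not pass the brightness filter in any pool. In the ERF-KO pools Eif2s3y had 0.57 and 0.65 in A2, against 3.01 and 3.20 in B2, and Ddx3y -2.10 and -2.11 in A2, against 1.01 and 1.07 in B2. A2 therefore lay between A1 and the B pools for both genes. Eif2s3y was 5.62-fold and Ddx3y 8.88-fold lower in A2 than in B2, and the pool difference was called as larger in the wild type pools (adjusted p = 0.00086 and 0.0017).

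Genes of chromosomes 6 and 8 were shifted together. The 742 tested genes of chromosome 6 had a median A1 minus B1 of -0.46, and 377 of them (50.8%) were called lower and 36 higher in A1. The 810 genes of chromosome 8 had a median of -0.30, with 311 (38.4%) called lower and 48 higher. On the other 17 autosomes the medians lay between -0.09 and 0.03, and 10.5% to 17.4% of genes were called lower, beside 17.4% of all genes. The untreated and OHT pairs gave -0.46 and -0.50 for chromosome 6, and -0.29 and -0.29 for chromosome 8. The 580 X-linked genes had a median of 0.04.

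**Figure D2:**
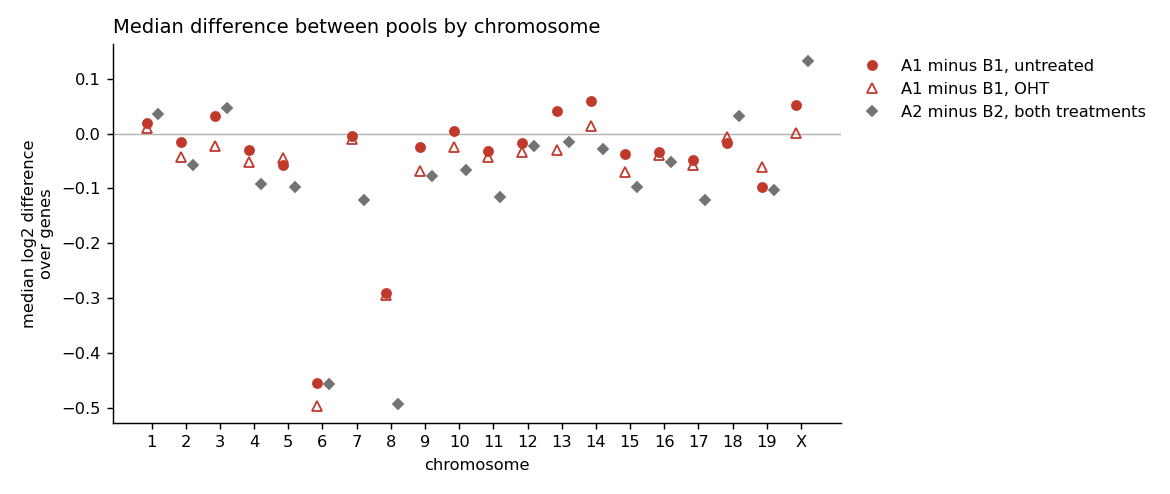
Median log2 difference over the tested genes of each chromosome (y axis), for A1 minus B1 untreated (filled circles) and with OHT (open triangles) and for A2 minus B2 (grey diamonds); chromosome Y, with 7 genes, is left out. Chromosomes 6 and 8 lie at -0.46 and -0.30 in A1 minus B1, and the other 17 autosomes between -0.09 and 0.03.

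The shift ran along both chromosomes. In consecutive windows of 50 genes, in the order of the GRCm38.p6 annotation, all 14 windows of chromosome 6 had medians between -0.61 and -0.30. The 16 windows of chromosome 8 lay between -0.49 and -0.07. Of the 269 windows on the other autosomes and X, 2 were below -0.25, and they spanned -0.35 to 0.25.

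**Figure D3:**
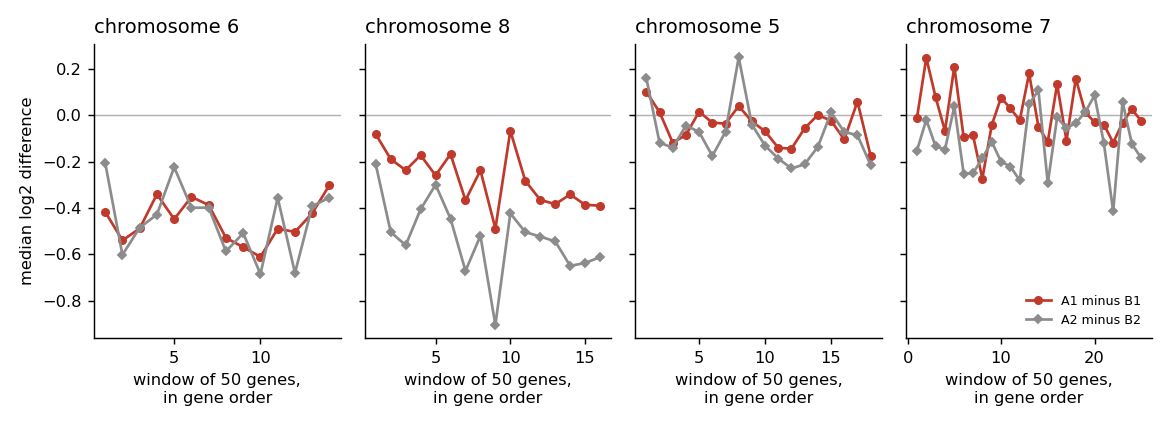
Median log2 difference in consecutive windows of 50 tested genes (y axis) in gene order along chromosomes 6 and 8 and, as examples of other chromosomes, 5 and 7; red is A1 minus B1 and grey is A2 minus B2. On chromosome 6 every window lies between -0.61 and -0.30 in A1 minus B1.

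Probes for intergenic intervals, which share no probe with the genes, gave medians of -0.028 on chromosome 6 (424 probes) and 0.030 on chromosome 8 (503 probes). These probes are dim, and the other 17 autosomes stood at 0.13 to 0.25, so chromosomes 6 and 8 were again the lowest. Within slide 1, A2 minus B2 had medians of -0.46 on chromosome 6 and -0.49 on chromosome 8, against -0.12 to 0.05 on the other 17 autosomes. Set against the pools labelled ERF-KO, A1 minus A2 was 0.01 on chromosome 6 and 0.19 on chromosome 8, while B1 minus B2 was 0.01 and -0.02. ES cell lines are known to gain or lose whole chromosomes in culture, and DNA was not measured here. With chromosomes 6, 8 and Y left out, 3594 of 13954 genes were called, 1594 higher and 2000 lower in A1.

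Some WNT response genes and genes of the formative epiblast were higher in A1. WNT ligands stabilise beta-catenin, which with TCF/LEF factors turns on feedback inhibitors such as Axin2 and Nkd1, and WNT activity supports ES cell self-renewal. Of 25 tested members of the WNT list 4 were called higher and 0 lower in A1, with a median of 0.16. That share is near the 10.8% of all genes called higher, so the list as a whole is not a result and its genes are given singly. The 4 were Axin2, Nkd1, the ligand Wnt3 and the receptor Fzd2. Nkd1 had 1.12 and 0.74 in A1, against -0.64 and -0.94 in B1, a difference of 1.72 ± 0.14 (adjusted p = 0.00062), while its dimmer probe gave 0.35. Nkd1 lies on chromosome 8, whose genes were lower on balance. Axin2 had -2.54 and -2.87 in A1, against -4.89 and -6.54 in B1, where neither array was well above background, so it was at least 3.22-fold higher in A1 (adjusted p = 0.0069). With normexp background correction the fitted difference was 0.32 (adjusted p = 0.25), the other Axin2 probe gave 0.70, and the call held in 2 of the 4 fits that left out a wild type array. Wnt3 was 1.47 ± 0.19 and Fzd2 0.86 ± 0.10 higher in A1 (adjusted p = 0.0028 and 0.0020).

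Of 26 tested formative and primed epiblast genes 12 were called higher and 2 lower in A1, with a median of 0.58, beside 10.8% and 17.4% of all genes and a median of -0.05. Fgf5, a growth factor that marks exit from naive pluripotency, had -0.67 and -2.23 in A1, against -2.17 and -3.92 in B1, a difference of 1.60 ± 0.21 (adjusted p = 0.0028). OHT arrays were lower than untreated ones in both pools, and the pool difference was of like size in both. Wnt8a was 2.14 ± 0.23 higher (adjusted p = 0.0014), and the kinase gene Pim2 1.63 ± 0.13 (adjusted p = 0.00099). Over all settings run Wnt8a ranged from 0.78 to 2.39, and Pim2 lost its call with patches kept (adjusted p = 0.66). The intermediate filament genes Krt8 and Krt18, which pair in simple epithelia, also stand in this list. Krt8 had 3.32 and 3.88 in A1, against 0.90 and 2.06 in B1, a difference of 2.12 ± 0.17 (adjusted p = 0.0015). Krt18 had 5.59 and 6.07 in A1, against 3.58 and 4.48 in B1, a difference of 1.80 ± 0.11 (adjusted p = 0.00052). Krt19 was 1.71 ± 0.13 higher (adjusted p = 0.00052).

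**Figure D4:**
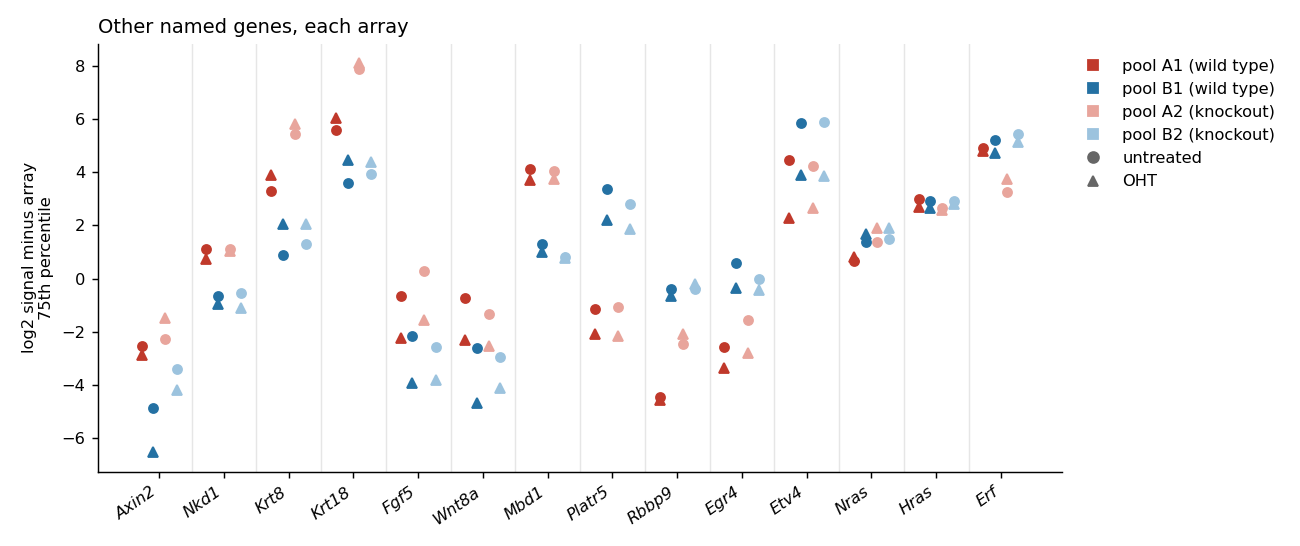
Log2 level (y axis) of 14 genes named in the text on each of the 8 arrays; colour gives the pool, circles are untreated and triangles are OHT arrays. Krt8 lies at 3.32 and 3.88 in A1 against 0.90 and 2.06 in B1, and Platr5 at -1.15 and -2.10 in A1 against 3.38 and 2.22 in B1.

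The epithelial list held calls in both directions. Of its 26 tested genes 7 were called higher and 6 lower, beside 10.8% and 17.4% of all genes. The list's median was -0.06, and it ran from -0.20 to 0.17 without 1 wild type array. The lower ones included Cdh1 (E-cadherin, on chromosome 8, -0.45 ± 0.11), which lost the call in all 4 fits without a wild type array. They also included Epcam (-0.57 ± 0.15), which lost the call in 2 of those fits. Epcam lost it as well with quantile normalization, normexp and patches kept (adjusted p = 0.065, 0.052 and 0.051). Of 24 trophoblast genes 9 were called higher and 2 lower, with a median of 0.46. These included Krt8, Krt18, the helix-loop-helix inhibitor Id2 (1.10 ± 0.12, adjusted p = 0.0015) and the factors Gata3 (0.96 ± 0.18) and Cdx2 (0.87 ± 0.25, adjusted p = 0.048). Tead4, on chromosome 6, was lower (-1.10 ± 0.17). With normexp background correction the trophoblast median was -0.042. The summed signal of the 6 trophoblast markers was 2.37 and 2.84 times the 75th percentile in A1, against 1.46 and 1.43 times in B1, with Elf5 not well above background on any wild type array. The call for Cdx2 was lost in all 4 fits without a wild type array, and that for Gata3 in 2 of them.

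Some endoderm and fibroblast genes were lower in A1. Of 25 tested genes of the primitive and parietal endoderm, the extraembryonic lineage that sets apart from the epiblast, 10 were called lower and 1 higher, with a median of -0.51, beside 17.4% and 10.8% of all genes. Cubn, an endocytic receptor of visceral endoderm, had about 0 and -0.62 in A1, against 1.67 and 0.85 in B1, a difference of -1.57 ± 0.13 (adjusted p = 0.00056). The lineage factors Gata6 (-1.05 ± 0.17) and Gata4 (-0.93 ± 0.16) and the receptor gene Pdgfra (-1.26 ± 0.27) were lower too (adjusted p = 0.0064, 0.0072 and 0.015), and these 3 lost the call in all 4 fits without a wild type array. Col4a1, a basement membrane collagen on chromosome 8, was lower by a difference of -1.08 ± 0.09 (adjusted p = 0.00062) and kept its call in those fits. The 1 gene called higher was Cited1 (0.95 ± 0.19).

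Of 24 fibroblast and feeder cell genes 6 were called lower and 0 higher in A1, a share near the 17.4% of all genes called lower, and the median was -0.56, beside -0.05 over all genes. Col6a1, a collagen gene, had -1.16 and -1.04 in A1, against 0.06 and 0.18 in B1, a difference of -1.21 ± 0.14 (adjusted p = 0.0018). Col3a1 (-0.97 ± 0.19) and the mesenchymal factor Twist2 (-0.90 ± 0.15) were lower as well, but lost the call in all 4 fits without a wild type array. The summed signal of the 7 fibroblast markers was 19.3 and 20.6 in A1, against 33.6 and 37.5 in B1, and none of the 7 was at background. For the 7 primitive endoderm markers it was 1.49 and 1.77 in A1, against 2.62 and 2.48 in B1. Other cells in the cultures as a part of these differences was not tested.

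Naive and core pluripotency genes held calls in both directions. Of 27 tested naive genes 3 were called higher and 4 lower in A1 (median -0.18), and of 19 core genes 3 and 4 (median -0.04), where 28.2% of all genes were called. Without 1 wild type array the naive median ran from -0.29 to -0.018 and the core median from -0.11 to 0.12. Pou5f1, which encodes OCT4, had 5.48 and 5.31 in A1, against 5.12 and 4.77 in B1, a difference of 0.45 ± 0.09 (adjusted p = 0.010, lost in all 4 fits without a wild type array). Dppa5a, an RNA-binding protein of naive cells, was 0.76 ± 0.09 higher (adjusted p = 0.0021). Zfp42, which encodes REX1 and lies on chromosome 8, was lower by a difference of -0.59 ± 0.09 (adjusted p = 0.012), as was Utf1 (-0.47 ± 0.06, adjusted p = 0.0026).

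Among genes well above background on all 4 wild type arrays and alike in both treatments, the 12 largest calls below 0 ran from -4.43 to -2.26 and shared no list. Platr5, a long non-coding RNA of pluripotent cells, had -1.15 and -2.10 in A1, against 3.38 and 2.22 in B1, a difference of -4.43 ± 0.11 (adjusted p = 2.0e-06). Rbbp9, a serine hydrolase, had -4.46 and -4.58 in A1, against -0.38 and -0.65 in B1, a difference of -4.01 ± 0.17 (adjusted p = 3.0e-05), while its other probe gave 0.02. Egr4, an immediate early zinc finger factor on chromosome 6, had -2.56 and -3.38 in A1, against 0.58 and -0.34 in B1, a difference of -3.09 ± 0.21 (adjusted p = 0.00038). Il4i1, a secreted amino acid oxidase, was lower by a difference of -2.74 ± 0.13 (adjusted p = 6.0e-05). The others were Glod5 (-3.12), Slc25a34 (-2.82), Stk3 (-2.49), Gm9734 (-2.49), Myom2 (-2.43), Gipc2 (-2.33), Nphs1os (-2.30) and Kbtbd11 (-2.26). Stk3 ranged from -3.42 to -1.57 over all settings run. It lost the call with quantile normalization and patches kept (adjusted p = 0.087 and 0.061). So it did with the 4 wild type arrays alone and the mean of all probes (adjusted p = 0.066 and 0.055). Myom2 and Kbtbd11 lie on chromosome 8, and the other 2 Kbtbd11 probes gave 0.29 and 0.44. All 12 had the same sign in A2 minus B2, from -3.94 to -1.07. Below background in A1 and above it in B1 were also Defb29 (at least 9.35-fold lower in A1) and Filip1 (at least 6.38-fold lower). Over all settings run their log2 differences came as near to 0 as -1.63 and -1.54, smaller than these bounds.

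Imprinted genes and chromatin regulators held calls in both directions. Of 38 tested imprinted genes 10 were called higher and 8 lower in A1 (median 0.19), beside 10.8% and 17.4% of all genes. Meg3, Mirg and Dlk1 share the imprinted Dlk1-Dio3 domain, in which Meg3 and Mirg are maternally and Dlk1 paternally expressed. Meg3 had 6.18 and 5.39 in A1, against 4.66 and 3.94 in B1, a difference of 1.48 ± 0.07 (adjusted p = 7.3e-05). Mirg was 1.13 ± 0.09 and Dlk1 1.14 ± 0.11 higher (adjusted p = 0.00060 and 0.0011). Mest, on chromosome 6, had 3.39 and 3.07 in A1, against 5.00 and 4.64 in B1, a difference of -1.59 ± 0.07 (adjusted p = 3.9e-05), with both other probes at -1.81 and -1.65. The growth inhibitor Cdkn1c was 1.20 ± 0.14 higher (adjusted p = 0.0037).

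Of 17 genes of the DNA methylation machinery 2 were called higher and 7 lower (median -0.25), beside 10.8% and 17.4% of all genes. Mbd1, a methyl-CpG binding protein, was 2.76 ± 0.09 higher by its brightest probe (adjusted p = 8.4e-06), while its other 2 probes gave 0.33 and 0.31. Uhrf1, which brings the maintenance methyltransferase to replicated DNA, was lower by a difference of -0.56 ± 0.08 (adjusted p = 0.0044). Uhrf1 lost the call with the mean of all probes (adjusted p = 0.79). Of 27 germline genes silenced by DNA methylation 7 were higher and 6 lower (median 0.19), among them Stra8 (-1.53 ± 0.20), a meiosis gene on chromosome 6, and Tex11 (-1.23 ± 0.11).

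Bright housekeeping groups shifted by small amounts, and their counts stand beside 10.8% of all genes called higher and 17.4% lower. Of 52 cytosolic ribosomal protein genes 28 were called higher and 1 lower in A1, with a median of 0.18 and a range of -3.29 to 1.30. The largest calls were Rpl4 (1.06 ± 0.15), Rps3 (0.75 ± 0.07, other probe -0.02) and Rpl7 (0.58 ± 0.06). The ribosomal median was 0.067 with quantile normalization. Of 31 genes of mitosis and DNA replication 2 were called higher and 16 lower (median -0.22), led by the cyclin genes Ccne1 (-0.59 ± 0.05) and Ccnb1 (-0.57 ± 0.06). Ccnb1 lost the call with the mean of all probes (adjusted p = 0.72). Cdk1, the kinase partner of cyclin B1, was higher by its brightest probe (0.58 ± 0.14), with the other probes at -0.42 and 2.65. Of 23 cholesterol synthesis genes 1 was called higher and 6 lower (median -0.34, range -2.66 to 0.27), a share near the 17.4% of all genes called lower. The largest calls were Insig1 (-0.68 ± 0.15) and, on chromosome 8, Mvd (-0.66 ± 0.09).

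The RAS-ERK genes bear on the design of the series, since every sample lacks H-Ras and N-Ras by label. The probes of Hras and Nras were well above background on all 8 arrays, against those labels, and whether they lie in the deleted parts was not stated. Erf, an ETS repressor downstream of ERK and the gene labelled as deleted in A2 and B2, had 4.91 and 4.79 in A1, against 5.22 and 4.73 in B1, a difference of -0.12 ± 0.23 (adjusted p = 0.75). In the arrays labelled ERF-KO it had 3.26 and 3.73 in A2, and 5.43 and 5.13 in B2. Pool B2 thus stood at or above the wild type pools, and whether the probe lies in the deleted part was not stated in the labels. Hras had 3.01 and 2.71 in A1, against 2.92 and 2.67 in B1 (0.06 ± 0.08, adjusted p = 0.58). Nras had 0.66 and 0.81 in A1, against 1.37 and 1.67 in B1, a difference of -0.78 ± 0.10 (adjusted p = 0.0022), and its other 2 probes gave -1.09 and -1.19.

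Of 28 ERK feedback and target genes 3 were called higher and 6 lower in A1, with a median of 0.12. These shares are near the 10.8% and 17.4% of all genes, so the genes are given singly. Etv4, an ETS factor induced by ERK, had 4.47 and 2.28 in A1, against 5.86 and 3.88 in B1, a difference of -1.50 ± 0.12 (adjusted p = 0.00067). The OHT arrays were lower than the untreated ones in both pools. Emp1, on chromosome 6, was lower by a difference of -1.16 ± 0.08 (adjusted p = 0.00040). Spry4, a feedback inhibitor of RAS signalling, was 1.01 ± 0.23 higher (adjusted p = 0.020), and lost that call with normexp and in 2 of the 4 fits without a wild type array. Of 11 RAS family genes 1 was higher, Rheb (0.72 ± 0.14), and 1 lower, Nras.

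Smaller or mixed groups were as follows, where 10.8% of all genes were called higher and 17.4% lower. Of 30 p53 target and stress genes 8 were called higher and 1 lower (median 0.29), and the lower one was Pmaip1, which encodes the death protein NOXA, at 0.55 and 0.39 in A1, against 3.21 and 2.14 in B1 (-2.21 ± 0.33, adjusted p = 0.024). Of 26 genes of the Nodal, BMP and TGF-beta pathway 8 were higher and 5 lower (median 0.16), with the activin subunit gene Inhbb at -0.36 and -0.34 in A1, against 1.92 and 1.42 in B1 (-2.02 ± 0.35, adjusted p = 0.026). Of 21 contractile and SRF target genes 3 were higher and 2 lower (median 0.05). Of 19 primitive streak and mesoderm genes 4 were higher and 3 lower (median 0.39), with Evx1, not well above background in B1, at least 2.32-fold higher (adjusted p = 0.013, but 0.65 with normexp). Of 19 neuroectoderm genes 2 were higher and 2 lower (median 0.24), with Map2, a neuronal microtubule protein, 1.53 ± 0.18 higher. Of 9 Rhox genes, an X-linked homeobox cluster, limma called 0, and the smallest p belonged to Rhox7a (adjusted p = 0.12).

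Among the other lists, 4 of 32 glycolysis and hypoxia genes were higher and 5 lower (median 0.08), with Ndrg1 1.81 ± 0.36 higher (adjusted p = 0.046). Ndrg1 lost that call in 2 of the 4 fits without a wild type array and with quantile normalization, patches kept and the mean of all probes (adjusted p = 0.051, 0.061 and 0.057). For 21 glutathione S-transferases the counts were 6 and 1 (median 0.21), for 18 MHC class I and antigen presentation genes 3 and 2 (median 0.15), and for 20 interferon response genes 2 and 3 (median -0.12). Of 21 ETS family genes 2 were higher and 3 lower, with Etv6, on chromosome 6, at -0.75 ± 0.12 beside Etv4 among the lower ones. Of all genes, 10.8% were called higher and 17.4% lower.

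Set beside the ERF-KO pools, the larger wild type differences mostly had the same sign. Of the 818 genes called at least 2-fold between A1 and B1, 694 (84.8%) had the same sign in A2 minus B2, beside 65.7% of all genes. Of them 554 were also called in that direction and 15 in the opposite one. Over all calls 2685 were shared in direction, which is 61.4% of the 4371 wild type calls and 38.9% of the 6897 ERF-KO calls, and 240 were called in opposite directions. Across 15512 genes, which are not independent and share probes and spots, A1 minus B1 and A2 minus B2 had Pearson r = 0.53 and Spearman rho = 0.46. Among the 538 genes at least 2-fold higher in A1, 333 had A2 nearer A1 and B2 nearer B1, and 178 had both ERF-KO pools nearer A1. Among the 280 lower ones these counts were 213 and 15.

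**Figure D5:**
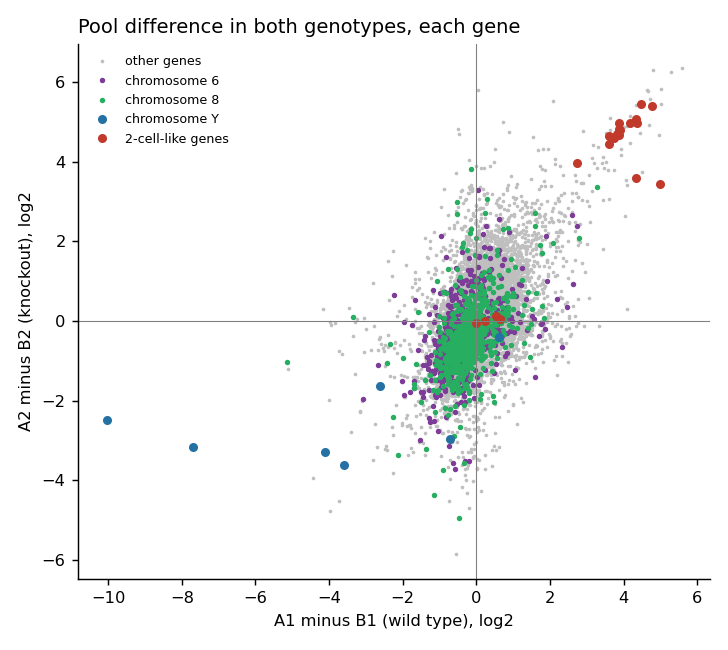
A1 minus B1 (x axis, log2) against A2 minus B2 (y axis, log2) for each tested gene; red marks the 2-cell-like list, purple chromosome 6, green chromosome 8 and blue chromosome Y. The 16 called red points lie above 2 on both axes, and Eif2s3y is the blue point at -10.03 on the x axis.

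The pool difference itself was called as unlike between the pools labelled ERF-WT and those labelled ERF-KO for 2752 genes (17.7%), 1426 above 0 (9.19%) and 1326 below 0 (8.55%). With a plain variance model 0 genes were called. A1 minus B1 crosses the slides and A2 minus B2 does not, so for this contrast the genotype label and the slide cannot be told apart. Several groups had opposite medians. Fibroblast genes stood at -0.56 in A1 minus B1 and 0.72 in A2 minus B2, endoderm genes at -0.51 and 0.43, and ribosomal protein genes at 0.18 and -0.17. The difference was called for 11 of 24 fibroblast, 12 of 25 endoderm and 33 of 52 ribosomal genes. Col4a1 fell in A1 (-1.08) and rose in A2 (1.00), each against its B pool, with adjusted p = 0.0017 for the difference. For Krt8 the 2 pool differences had the same sign but unlike size, at 2.12 and 3.94 (adjusted p = 0.011).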

How the data were processed

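Each of the 8 RNA samples had an Agilent array of its own, read in 1 colour (Cy3) per the labels. The authors deposited scanner files with the processed intensity of each spot, which per the file headers release 11.5.1.1 of Feature Extraction had corrected for background and spatial trend; it is unscaled between arrays. Deposited 0 or 1 flags and the median pixel intensity of spot and local background were also used. A deposited value table of log2 values for the 8 samples was not used, since its probe names did not match the scanner files. The authors' own normalization is not stated in the labels or headers.

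Each array had 62976 spots, 59305 of them not controls. Outlier-flagged spots and spots in patches (median shift over 11 × 11 spots above 0.5 log2) were left out, for all arrays where on a wild type array. A patch on an ERF-KO array removed that array's value alone. Values were log2 processed signal minus the array's 75th percentile. Of 55681 probes 28026 matched 21154 genes through a RefSeq table of GRCm38.p6, used for names, chromosomes and gene order, and the array design itself was annotated on mm9. The filter kept genes whose arrays were both well above background in 1 pool or more, and the brightest probe stood for each of the 4067 genes with several. No spot was saturated. A bound ("at least") sets the bright pool against the dimmest signal well above background. Where the gene's own signal on an array of the dim pool was larger, that signal was used. A bound holds for the processing described here only, since differences under other settings were smaller than some bounds.

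limma 3.58.1 (R 4.3.3; lmFit, eBayes with trend and robust) was fitted to all 8 arrays with pools and OHT within each genotype as terms and 2 residual degrees of freedom, two-sided, at 0.05 after Benjamini-Hochberg adjustment. On simulated data for A1 minus B1 over 15013 genes, the fit recovered 34% of log2 differences of 0.5, 86% of 1, 86% of 2 and 72% of -1, and called 20 unchanged genes. The simulated noise was independent between arrays and held no slide effect. These rates therefore do not measure how many real calls go with the slide. The number of arrays limits the precision. Normexp used median signals, since the scanner files used here give no mean signal.

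The 29 gene lists and the comparison were chosen with earlier results of these data known. One of the genes that the rule names is not reported here. Genes named were Erf, Hras and Nras; the 12 largest calls a direction that were bright on all 4 wild type arrays and alike in both treatments; up to 5 genes a direction by bound; up to 3 calls of each list, or else its smallest p; Y-linked genes; and the 5 largest differences between the ERF-WT and labelled ERF-KO pools a direction. Zscan4c, Zscan4f, Usp17la, Fgf5, Pim2, Fzd2, Gata3, Gata4, Gata6, Cdx2, Col4a1, Cited1, Pou5f1, Mirg and Dlk1 were added after their values were seen.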

Additional observations from a re-analysis of the deposited data

Results flagged for a closer look

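The A1 minus B1 difference was called as unlike the A2 minus B2 difference for 2752 genes by a limma test of the difference of differences, and for 0 genes with a plain variance model. The genes named here had the largest such values. For Cxcr6, a chemokine receptor, A1 minus B1 was 0.04 and A2 minus B2 5.81, a difference of -5.77 (adjusted p = 0.0033). That value rests on 1 A2 array, the OHT one (-0.76), since the other was left out, and on a B2 pool with -2.85 untreated and -6.57 with OHT. Eif2s3y had a fitted difference of -7.53 and Ddx3y of -4.54. Neither was well above background in A1, and with A1 at its bound the differences were -5.23 and -2.32, or further from 0. Mid1 (-5.31) and Lce1f (-4.24) were not well above background in either wild type pool, so the signal was that of A2, in which both arrays were bright, at least 11.1-fold and 3.86-fold above B2. On the other side stood Fgf21 (3.76), an endocrine growth factor gene, whose A1 minus B1 was -0.40 and fitted A2 minus B2 -4.16. It was not well above background in A2, where it was at least 4.67-fold lower than in B2, and the bound of the difference was 1.82. With it stood Nkx6-3 (3.23), at -1.14 and -4.37. Gm4371 (3.54) was well above background in A1 alone, at least 1.88-fold above B1, and Smg8 (3.45) was not well above background in B1, with a bound of the difference of 1.35. Tlr7 (3.50), a receptor for single-stranded RNA, was bright on all 8 arrays and 2.47 ± 0.23 higher in A1 than in B1, against -1.03 for A2 minus B2 (adjusted p = 0.0033). Apart from Cxcr6, these values rest on 2 arrays a pool, and no cause was tested.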

How the results depend on the processing

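No paired analysis was possible because the replicate number is the pool compared: replicate 1 is A1 and replicate 2 is B1. The arrays are paired by treatment instead. Without a term for treatment 112 genes were called between A1 and B1, and with a plain variance model 1418, in place of 4371; the plain model called 0 for the difference between the ERF-WT and labelled ERF-KO pools, in place of 2752. Leaving out 1 array at a time gave 1088 to 5383 calls between A1 and B1 and 585 to 3258 for that difference. Under the other settings of scaling, background, patches, filter and probe choice both counts stayed within 1.5 times. Of 133 named genes with a call, 73 kept it without each of the 4 wild type arrays and 60 lost it without at least 1. Of those named above, Cdh1, Cdx2, Col3a1, Evx1, Gata4, Gata6, Gm4371, Inhbb, Insig1, Pdgfra, Pou5f1, Rbmy and Twist2 lost it in all 4 fits. Others were Gm11543, Sly, Axin2, Cdk1, Cited1, Epcam, Etv6, Filip1, Gata3, Gm20736, Mvd, Ndrg1, Nkx6-3, Rheb, Spry4, Tead4, Uhrf1, Zfp42, Defb29, Pmaip1 and Smg8. Probes not well above background limit the bounds, and slide and pool cannot be told apart.

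With normexp background correction list medians were 2.39 (2-cell-like), -1.02 (Y-linked and Xist), 0.32 (ribosomal), -0.10 (mitosis and replication), 0.10 (RAS), -0.10 (ETS), -0.33 (interferon), -0.33 (Rhox) and 0.085 (glutathione S-transferases). Under it they reversed for ERK (-0.047), germline (-0.0076), imprinted (-0.011), trophoblast (-0.042), streak and mesoderm (-0.14), neuroectoderm (-0.033) and MHC (-0.060) genes. It gave chromosome medians of -0.29 (8) and -0.10 (X). Quantile normalization gave -2.93 (Y-linked and Xist), -0.068 (ETS), 0.14 (imprinted), 0.34 (trophoblast), 0.10 (contractile), 0.052 (MHC), 0.067 (ribosomal), 0.11 (glutathione S-transferases) and -0.27 (chromosome 8). Without the filter on dim probes the values were -0.53 (Y-linked and Xist), -0.0078 (ETS), 0.23 (imprinted), 0.34 (trophoblast), -0.0070 (Rhox) and 0.12 (glutathione S-transferases). Probes bright on all 8 arrays gave 0.12 (imprinted) and 0.60 (trophoblast). The mean of all probes gave 0.037 (RAS), 0.063 (ETS), 0.22 (imprinted) and 0.038 (glutathione S-transferases), and with patches kept ETS stood at 0.063. Without members on chromosomes 6, 8 and Y, chosen after seeing the data, medians were 0.034 (ETS), 0.30 (germline), 0.25 (imprinted), 0.60 (trophoblast) and -0.17 (mitosis and replication). Interval probes, also chosen after seeing the data, gave -0.028, 0.030 and 0.23 for chromosomes 6, 8 and X.

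Leaving out 1 array at a time, list medians ranged over -0.050 to 0.0074 (RAS), -0.041 to 0.12 (ERK), 0.39 to 0.58 (formative), 3.73 to 3.89 (2-cell-like), 0.089 to 0.19 (imprinted), 0.35 to 0.46 (trophoblast), -0.73 to -0.44 (endoderm), 0.24 to 0.39 (streak and mesoderm), 0.23 to 0.30 (p53), -0.093 to 0.13 (glycolysis), -0.21 to -0.027 (Rhox), 0.21 to 0.31 (glutathione S-transferases), 0.15 to 0.29 (WNT) and -0.066 to 0.22 (Nodal, BMP and TGF-beta). Among named genes the sign turned with normexp for Actc1 (-0.054), Gm4371 (-0.13), Rhox7a (-0.37), Slc25a31 (-0.0076), Sry (-0.46) and Cxcr6 (-0.33), and with quantile normalization for Cxcr6 (-0.073). Without 1 array Cxcr6 ranged from -0.078 to 0.16, Erf from -0.30 to 0.059 and Lce1f from -0.77 to 0.35. The cause of these changes was not tested.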
